A study of Mus musculus with 22 samples.

Results

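Messenger RNA was counted in the nucleus accumbens, a ventral striatal region that takes part in reward, for 37 genes of cholesterol and fatty acid synthesis, their control and lipid transport. The genes were taken by symbol from a list that was chosen with earlier results of these data known. All 37 were in the count table and passed the filter on low counts, out of 24061 genes in the table and 14564 tested. The 22 libraries came from bulk tissue of conventionally raised male C57BL/6J mice that were 7 to 9 weeks old. The mice drank plain water (labelled Normal Microbiome) or were given nonabsorbable antibiotics (labelled Depleted Microbiome). They received saline, or morphine at 20 mg/kg per day for 7 days. Water mice given saline gave 6 libraries, water mice given morphine 5, antibiotic mice given saline 6 and antibiotic mice given morphine 5. The labels do not say whether a library holds RNA of a single mouse or of pooled mice, so p-values measure the spread between these libraries, part of which may be technical.

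Under morphine, 11 of the 37 genes had lower transcript levels in antibiotic mice than in water mice, where 9.58% of all genes tested were lower. They were 3 of the 4 elongases and 3 of the 4 desaturases among the 37, the sterol enzymes Dhcr7, Nsdhl and Ebp, the regulator gene Srebf2 and the sterol carrier gene Stard4. The cholesterol exporter gene Abca1 and the synthesis genes Lss and Fdft1 were higher, where 8.42% of all genes were, and so was Elovl4, an elongase outside the 37. Among the 37 these changes were between 0.716-fold (Elovl6) and 1.41-fold (Abca1).

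Cholesterol is built in the brain itself, because the blood-brain barrier keeps out the cholesterol of plasma lipoproteins, and myelin holds most of it. SREBP transcription factors sense the sterols of the endoplasmic reticulum: the chaperone SCAP carries them to the Golgi for cleavage when sterol is scarce, and INSIG proteins hold them back when it is plentiful. Liver X receptors, activated by oxidised sterols, switch on the exporter ABCA1 and related genes when sterol is in excess. Fatty acid synthase makes saturated chains, which elongases lengthen and desaturases unsaturate, and the desaturases FADS1 and FADS2 act on the dietary precursors of arachidonic and docosahexaenoic acid.

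Total counts were between 11789713 and 19755139 per library, of which 9357299 to 15330947 fell in genes. All 14 markers of striatal projection neurons, the main neurons of the labelled tissue, were detected in every library, the least abundant being Gpr6 at a mean of 69.3 CPM (a gene's counts scaled to a common library size by trimmed mean of M-values). No marker of myelin, astrocytes, microglia or endothelium was at 0 in any library. Of the markers of cortical and septal neurons, 2 of 10 were at 0 in at least 1 library. A pair of libraries had the highest levels of the noncoding RNA Malat1: library 6 of the antibiotic mice given saline (2463 CPM) and library 4 of the antibiotic mice given morphine (1007 CPM). The summary entry for reads in no annotated feature held 15.4% and 12.5% of their counts, and all 5 summary entries held 26.4% and 23.3%. In library 5 of the antibiotic mice given morphine these shares were 12.1% and 23.6%. The next Malat1 level was 512 CPM. Without this pair, the calls of Insig1, Fdft1, Nsdhl, Scd2 under saline and Elovl7 under saline were lost, with values given at each.

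The upstream sequences of 5 of the genes are shown because the pathway's known regulators act there and these genes moved in opposite directions. Hmgcs1 is shown because it held the only exact match to the sterol regulatory element in the windows searched. RefSeq promoter windows (build GRCm38.p6, 250 bases before to 50 after the start) matched 28 of the 37 genes. No window was held for Fads1, Scd1, Scd2, Sqle, Fdft1, Fdps, Stard4, Abcg1 and Lpl. The motifs searched, on both strands, were the sterol regulatory element TCACNCCAC bound by SREBPs, the CCAAT box CCAAT, the E-box CACGTG and the GC box GGGCGG. Each line gives the 250 bases before the start, 5′ to 3′ on the gene's strand, with matches to the motifs in capitals.
Hmgcs1 (chr13:119690101-119690350, plus strand): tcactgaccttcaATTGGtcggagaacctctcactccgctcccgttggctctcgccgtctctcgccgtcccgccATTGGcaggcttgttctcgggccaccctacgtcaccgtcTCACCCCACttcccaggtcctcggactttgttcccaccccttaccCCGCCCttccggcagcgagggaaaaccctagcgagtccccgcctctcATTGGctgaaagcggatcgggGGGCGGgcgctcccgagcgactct
Lss (chr10:76531355-76531604, plus strand): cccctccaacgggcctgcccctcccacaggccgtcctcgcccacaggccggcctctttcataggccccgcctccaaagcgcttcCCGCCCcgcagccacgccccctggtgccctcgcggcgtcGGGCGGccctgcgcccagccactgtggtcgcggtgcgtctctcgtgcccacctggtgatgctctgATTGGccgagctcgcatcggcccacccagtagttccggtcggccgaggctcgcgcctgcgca
Abca1 (chr4:53159896-53160145, minus strand): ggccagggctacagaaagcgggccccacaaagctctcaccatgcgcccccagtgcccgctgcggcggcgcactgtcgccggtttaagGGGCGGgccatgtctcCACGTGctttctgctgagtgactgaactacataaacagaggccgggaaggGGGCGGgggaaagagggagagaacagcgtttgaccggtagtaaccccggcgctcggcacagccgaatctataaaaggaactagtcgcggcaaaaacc
Elovl6 (chr3:129532136-129532385, plus strand): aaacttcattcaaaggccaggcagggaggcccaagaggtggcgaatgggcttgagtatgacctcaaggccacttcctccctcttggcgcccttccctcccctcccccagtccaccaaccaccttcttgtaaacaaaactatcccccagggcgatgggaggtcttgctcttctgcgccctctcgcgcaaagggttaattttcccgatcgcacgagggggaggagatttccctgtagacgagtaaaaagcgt
Fads2 (chr19:10101504-10101753, minus strand): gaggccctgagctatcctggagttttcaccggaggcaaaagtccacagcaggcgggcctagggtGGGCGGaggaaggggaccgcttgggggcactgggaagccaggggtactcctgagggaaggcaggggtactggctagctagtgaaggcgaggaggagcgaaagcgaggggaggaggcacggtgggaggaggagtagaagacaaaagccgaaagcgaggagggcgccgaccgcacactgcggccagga

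The sterol regulatory element, which in Hmgcs1 reads TCACCCCAC, was found in 1 of 39 windows of these genes (2.56%) and in 1.24% of all 32851 windows. Its first base in Hmgcs1 lay at position -137 from the start. A shorter form, CACCCCAC, which overlaps the full element, was in 3 of 39 windows (7.69%), those of Acat2, Elovl7 and Hmgcs1, against 2.87% of all windows. The CCAAT box was in 21 of 39 windows (53.8%) against 37.4%, the E-box in 7 (17.9%) against 7.15%, and the GC box in 27 (69.2%) against 35.7%. The Lss sequence held 1 CCAAT box and 2 GC boxes, that of Abca1 held 1 E-box and 2 GC boxes, that of Fads2 held 1 GC box, and that of Elovl6 had no match to these letters. A match is a run of letters and not a measured binding site. Only exact matches in these windows were counted, so a gene without a match may still hold such an element.

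Per kilobase of the longest protein-coding transcript, the level of Apoe, the main cholesterol carrier secreted by astrocytes, was 986 ± 33.2 CPM per kb in water mice given saline (SD, n = 6). Scd2, the main stearoyl-CoA desaturase of the brain, followed at 294 ± 8.03, then Fads1 at 86.8 ± 2.61 and Acly, which makes cytosolic acetyl-CoA from citrate, at 74.5 ± 2.81. By this measure these 4 held ranks 1 to 4 in each group. At the low end, Stard4 had 3.06 ± 0.174 and the isomerase gene Idi1 had 2.24 ± 0.196 CPM per kb, ranks 36 and 37 in each group. Among the regulators, by the longest transcript, Srebf2 had 54.7 ± 3.08, Scap 32.1 ± 0.88, Srebf1 23.0 ± 1.39, Insig1 21.8 ± 2.15 and Insig2 16.3 ± 1.17 CPM per kb. By either length the level of Srebf2 was above that of Srebf1 by more than their spread, and by the longest transcript Srebf1 and Insig1 did not differ beyond it. The order depends on the transcript taken for length. With the median length of a gene's coding transcripts, Apoe (1699 CPM per kb) and Scd2 (294) still led in water mice given saline, but Scap (227) stood above Fads1 (149) and Srebf2 (116), Insig2 had 79.0 and Acly 77.1. At the low end Elovl7 (4.57), Abca1 (5.41) and Hsd17b7 (5.75) then stood below Idi1 (9.17) and Stard4 (16.6).

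**Figure D1:**
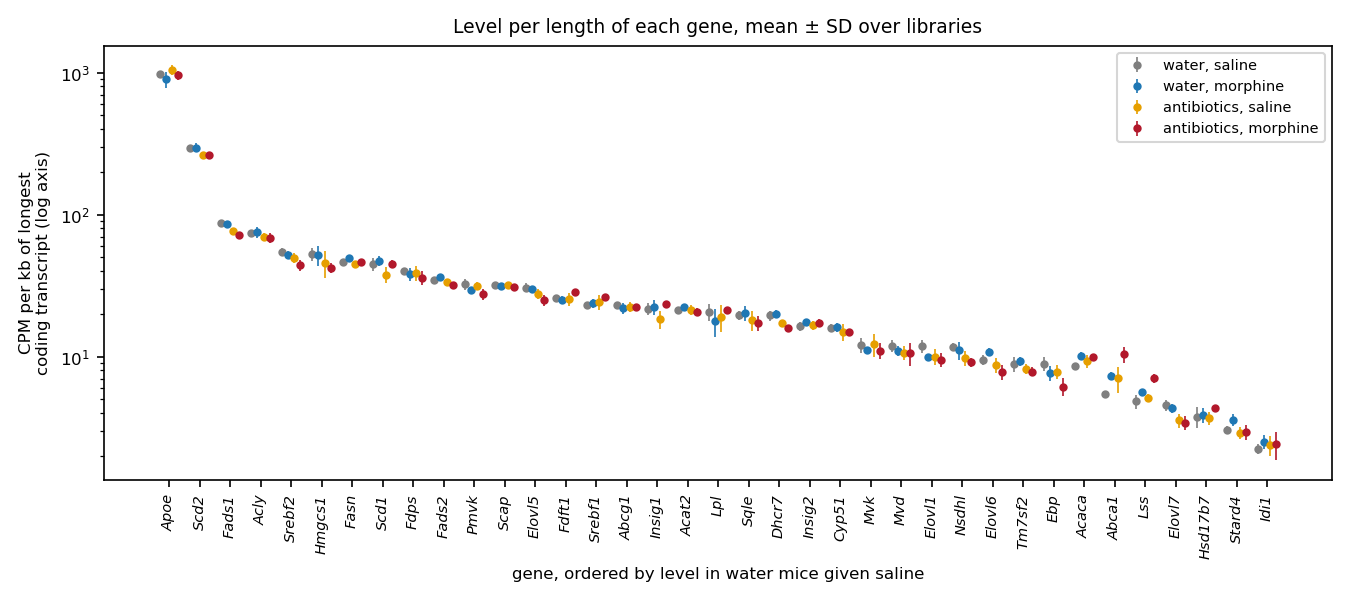
Level of each of the 37 genes per kilobase of its longest coding transcript (vertical log axis, CPM per kb), ordered by the level in water mice given saline; points are group means and bars SD over 5 or 6 libraries. By this length Apoe stands highest and Idi1 lowest in each of the 4 groups, and the points of Abca1 and Lss in antibiotic mice given morphine lie above those of the other groups.

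Changes were tested with the edgeR quasi-likelihood test and Benjamini-Hochberg adjustment over all 14564 genes, and "higher" or "lower" is written of a change at an adjusted p under 0.05. Morphine against saline in water mice gave 2 of the 37 genes higher and 0 lower, where 6.58% of all genes tested were past the threshold, 3.91% higher and 2.67% lower. Without library 5 of the water mice given saline the count was 4. Morphine against saline in antibiotic mice gave 5 higher and 1 lower, against 13.0% of all genes in either direction, 6.43% higher and 6.62% lower. The count was 3 without library 1 of the antibiotic mice given saline, and likewise without library 1 or library 3 of the antibiotic mice given morphine.

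Antibiotics against water under saline gave 0 of the 37 genes higher and 3 lower, where 1.41% of all genes passed, 0.542% higher and 0.865% lower. The count was 1 without library 3 of the water mice given saline or without library 2 or 4 of the antibiotic mice given saline. It was 6 without library 1 of the antibiotic mice given saline. Antibiotics against water under morphine gave the most calls, with 18.0% of all genes past the threshold: 3 genes higher (8.11% of the 37, against 8.42% of all genes) and 11 lower (29.7%, against 9.58%). The median log2 change of the 37 genes in that comparison was -0.08, with 28 of 37 below 0, beside a median of 0.00 over all genes tested. With antibiotics under saline the median of the 37 genes was -0.10, also with 28 of 37 below 0, beside 0.00 over all genes. Under morphine the share of the 37 genes that were higher was thus near that of all genes, and the share that were lower was above it. The lower share was above that of all genes under saline too (8.11% against 0.865%). The genes were chosen with earlier results of these data known, so these shares are descriptions.

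**Figure D2:**
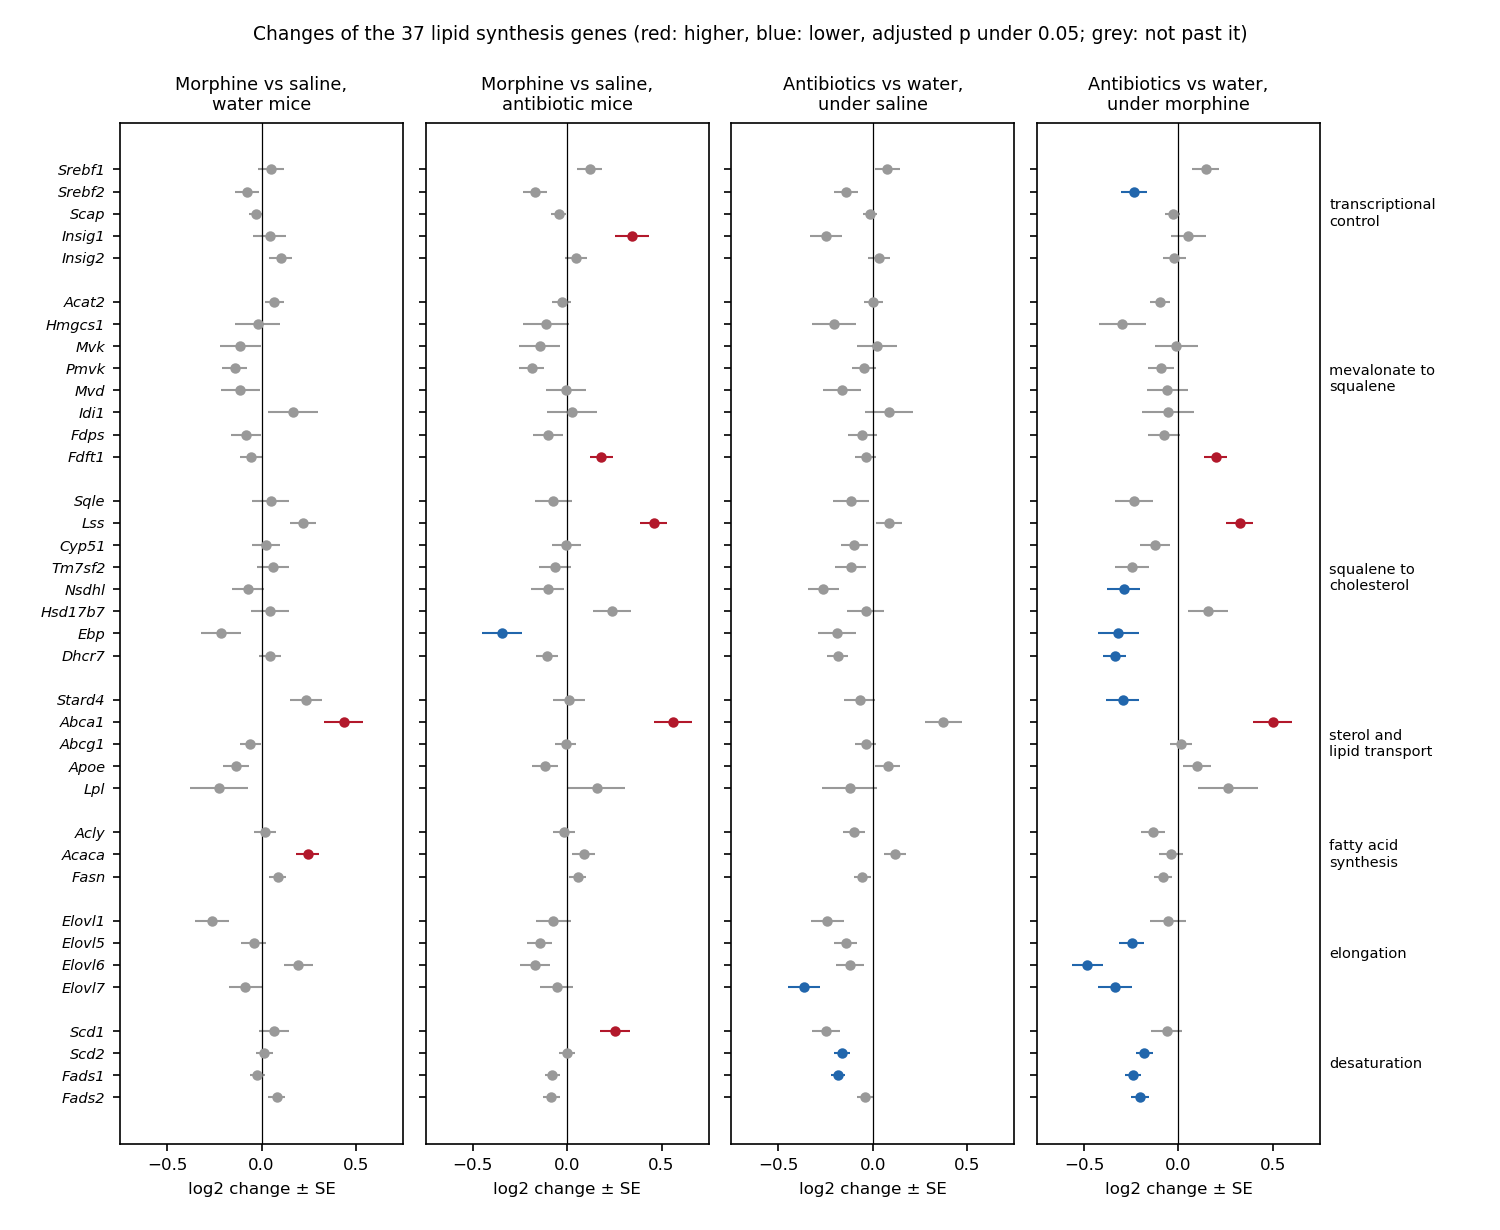
Log2 change with its standard error (horizontal axis) of each of the 37 genes in 4 comparisons, grouped by role; red and blue points are past an adjusted p of 0.05. Most coloured points stand in the comparison of antibiotics with water under morphine, where 11 genes are lower and 3 higher, and the elongation and desaturation genes there all lie left of 0.

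Libraries also differed in how levels depended on transcript length. The slope of a library's log2 deviation from each gene's mean on log2 length was between -0.0781 and -0.0111 in water mice given saline and between 0.0280 and 0.0469 in water mice given morphine. It was between -0.0532 and 0.0479 in antibiotic mice given saline and between 0.0255 and 0.0550 in antibiotic mice given morphine. In water mice the saline and morphine groups thus did not overlap. In antibiotic mice only saline library 6 (0.0479), the library with the highest Malat1, reached the morphine range. The other saline libraries there were at or below -0.00824. With the slope as a covariate, 0 of the 37 genes passed for morphine in water mice or in antibiotic mice. For antibiotics under saline 0 of the 37 passed too. Over all genes tested, 0 passed for morphine in water mice, 138 for morphine in antibiotic mice and 45 for antibiotics under saline. The loss of calls was thus not particular to the 37 genes. In water mice the slope and morphine cannot be told apart, so that fit cannot decide whether morphine changed these genes. For antibiotics under morphine 13 of the 37 genes still passed with the slope as a covariate, 3 higher and 10 lower, and Ebp did not (adjusted p = 0.054).

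Of the 5 control genes, Srebf2, which encodes the SREBP that chiefly drives sterol synthesis, was lower in antibiotic than in water mice under morphine. In water mice given morphine it stood at 256, 282, 278, 260.3 and 239.6 CPM in libraries 2 to 6, and in antibiotic mice given morphine at 205, 247, 199, 241 and 225 CPM in libraries 1 to 5. Under saline the lowest, median and highest values were 258, 274 and 302 CPM in water mice and 215, 254 and 273 CPM in antibiotic mice. The morphine groups overlapped, since 2 antibiotic libraries lay above the lowest water library. This was a log2 change of -0.24 ± 0.068 (SE), or 0.849-fold, with an edgeR adjusted p of 0.0187. It missed the threshold without library 3 of the water mice given morphine (adjusted p = 0.0532) or without library 1 or 3 of the antibiotic mice given morphine (0.0603 and 0.062).

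Insig1, itself a target of SREBPs and the anchor that retains them, was higher with morphine in antibiotic mice. The antibiotic mice given saline had a lowest, median and highest level of 40.9, 48.6 and 61.6 CPM, and those given morphine had 65.5, 57.8, 60.0, 65.3 and 65.4 CPM in libraries 1 to 5. Most of the morphine libraries stood above all saline libraries, and 2 overlapped them. Morphine gave a log2 change of 0.34 ± 0.090, or 1.27-fold, with an edgeR adjusted p of 0.015. Without the pair of libraries with the highest Malat1 the adjusted p was 0.0518, and with the length slope as a covariate 0.275.

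In water mice Insig1 did not pass, with 51.4, 58.3 and 66.7 CPM (lowest, median, highest) under saline and 62.2, 63.1, 69.2, 59.4 and 48.8 CPM under morphine (log2 change 0.04). The other control genes passed in no comparison. Srebf1, whose SREBP-1 product chiefly drives fatty acid synthesis, had 93.5, 97.2 and 109.9 CPM (lowest, median, highest) in water mice given saline and 87.5, 101 and 122 CPM in antibiotic mice given saline. Under morphine it had 108, 109.5, 94.5, 93.1 and 106 CPM in water mice and 115, 108, 117, 116 and 109 CPM in antibiotic mice, a log2 difference of 0.14 ± 0.071 (edgeR adjusted p = 0.168). The groups overlapped. Exons of Srebf1 overlap Rai1 by 109 bases on the opposite strand.

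Scap, the escort of SREBPs, was the steadiest of the controls. Its lowest, median and highest levels under saline were 131, 135 and 142 CPM in water mice and 126, 132 and 144 CPM in antibiotic mice. Under morphine it had 129, 139, 129, 137 and 130.3 CPM in water mice and 125, 133, 131, 133 and 129 CPM in antibiotic mice. Its largest log2 change in size was -0.05 (edgeR adjusted p = 0.483), and all groups overlapped. Insig2, a paralog of Insig1, had log2 changes between -0.02 and 0.10 in these 4 comparisons, none past the threshold.

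Among the 8 genes from acetyl-CoA to squalene, only Fdft1, the squalene synthase that commits farnesyl diphosphate to sterols, passed in edgeR. DESeq2 also placed the kinase gene Pmvk past the threshold, lower with morphine in antibiotic mice (log2 change -0.19, edgeR adjusted p = 0.0597, DESeq2 adjusted p = 0.0458). The mean level of Fdft1 was 106 ± 5.41 CPM in antibiotic mice given morphine (SD, n = 5), 93.4 ± 9.62 in antibiotic mice given saline (n = 6) and 92.4 ± 6.26 in water mice given morphine (n = 5). It was higher with morphine in antibiotic mice (log2 change 0.18 ± 0.059, edgeR adjusted p = 0.0441) and with antibiotics under morphine (0.20 ± 0.062, 0.029). The groups overlapped in each. The first of these calls missed the threshold without any of 13 of the 22 libraries (adjusted p up to 0.119) and the second without any of 7 (up to 0.0765). In the other settings run, the first was lost in 6 of 7, all but DESeq2 (edgeR adjusted p up to 0.526). The second was lost in 2 of 7, with the library number as a block and without the pair with the highest Malat1 (up to 0.0655). Without the pair with the highest Malat1 the adjusted p was 0.0776 and 0.0626. In the GENCODE M21 annotation 774 bases of Fdft1 exon overlap the lysosomal protease gene Ctsb on the opposite strand, and whether counting used strand is not given in the sources used here.

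The other genes of this stretch did not pass in edgeR. Hmgcs1, the HMG-CoA synthase whose promoter held the sterol element, averaged 183 ± 19.1 CPM in water mice given saline, 158 ± 33.5 in antibiotic mice given saline, 179.9 ± 28.2 in water mice given morphine and 146 ± 12.6 in antibiotic mice given morphine. The log2 difference with antibiotics under morphine was -0.30 ± 0.125 (edgeR adjusted p = 0.106), although those groups did not overlap. The farnesyl diphosphate synthase gene Fdps differed by -0.08 there (0.569), and 1124 bases of its exons overlap the annotated gene Gm43738 on the same strand. Mvk and Pmvk, the kinases of mevalonate, Mvd, the decarboxylase that follows them, Idi1 and Acat2 had log2 changes between -0.10 and -0.01 in that comparison, none past the threshold.

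Of the 8 genes from squalene to cholesterol, Lss, the lanosterol synthase that closes the sterol rings, was higher in antibiotic mice given morphine than in either neighbouring group. It stood at 33.6, 30.3, 30.7, 35.3 and 34.6 CPM in libraries 1 to 5 of the antibiotic mice given morphine and at 26.2, 28.2, 25.1, 26.2 and 25.6 CPM in libraries 2 to 6 of the water mice given morphine. Under saline the lowest, median and highest were 19.2, 22.8 and 25.2 CPM in water mice and 21.7, 24.8 and 25.2 CPM in antibiotic mice. All libraries of antibiotic mice given morphine lay above those of the 3 other groups.

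The log2 change of Lss was 0.46 ± 0.070 (1.37-fold) with morphine in antibiotic mice, at an edgeR adjusted p of 0.000308. It was 0.32 ± 0.072 (1.252-fold, 0.00277) with antibiotics under morphine. Morphine in water mice gave 0.22 (edgeR adjusted p = 0.0596; DESeq2 placed it past the threshold). With the length slope as a covariate, the morphine change in antibiotic mice was 0.35 (adjusted p = 0.0709), while the antibiotic change under morphine still passed.

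Dhcr7, the reductase of the last step to cholesterol, was lower with antibiotics under morphine. It stood at 50.4, 60.7, 56.1, 56.6 and 58.9 CPM in libraries 2 to 6 of water mice and at 43.5, 45.4, 42.6, 47.3 and 45.1 CPM in libraries 1 to 5 of antibiotic mice, without overlap. Under saline its lowest, median and highest were 48.7, 54.8 and 60.6 CPM in water mice and 45.9, 47.5 and 53.9 CPM in antibiotic mice, which overlapped. Dhcr7 had a log2 change of -0.34 ± 0.061 (0.792-fold, edgeR adjusted p = 0.000464) under morphine and -0.19 (0.0914) under saline.

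Nsdhl and Ebp, which act on the sterol ring between lanosterol and cholesterol, were also lower with antibiotics under morphine. Nsdhl averaged 24.1 ± 3.47 CPM in water mice and 19.7 ± 1.45 in antibiotic mice (log2 change -0.29 ± 0.089, edgeR adjusted p = 0.0258), and missed the threshold without library 4 of the water mice given morphine (0.0908) or without library 1, 3 or 4 of the antibiotic mice given morphine (0.0585, 0.0656 and 0.0613). Without the pair with the highest Malat1 its adjusted p was 0.0613. Ebp averaged 13.3 ± 1.55 and 10.7 ± 1.54 CPM (-0.32 ± 0.111, 0.0483). It missed the threshold without any of 14 of the 22 libraries (up to 0.130) and in 4 of 7 other settings (up to 0.0891). Ebp was lower with morphine in antibiotic mice as well (-0.35 ± 0.108, 0.0357). This call was lost without library 1 or 3 of the antibiotic mice given saline or library 1 or 3 of those given morphine (0.0972, 0.0704, 0.105 and 0.110). It was also lost in 3 of 7 other settings: only the groups compared, the library number as a block and the length slope (up to 0.564).

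The remaining 4 genes of this stretch did not pass in any comparison. With antibiotics under morphine, the log2 difference was -0.25 (edgeR adjusted p = 0.0563) for the sterol reductase gene Tm7sf2, -0.24 (0.114) for the squalene epoxidase gene Sqle, -0.12 (0.288) for the demethylase gene Cyp51 and 0.16 (0.322) for Hsd17b7, which reduces the sterol ketone. Exons of Cyp51 overlap Akap9 by 166 bases on the opposite strand and those of Tm7sf2 overlap Vps51 by 532 on the same strand.

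In the transport group Abca1, which exports cholesterol to apolipoproteins and is a classical liver X receptor target, had the largest rises of the 37 genes. It stood at 51.7, 55.8 and 59.8 CPM (lowest, median, highest) in water mice given saline and at 58.8, 67.9 and 97.3 CPM in antibiotic mice given saline. Under morphine it stood at 75.3, 79.6, 67.9, 80.1 and 72.6 CPM in libraries 2 to 6 of water mice and at 127, 92.2, 109, 102 and 101 CPM in libraries 1 to 5 of antibiotic mice. Morphine libraries lay above saline libraries in water mice without overlap, and antibiotic libraries above water libraries under morphine. In antibiotic mice the highest saline library lay above the lowest morphine library.

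The log2 change of Abca1 with morphine was 0.44 ± 0.103 (1.35-fold, edgeR adjusted p = 0.0159) in water mice and 0.56 ± 0.102 (1.47-fold, 0.00135) in antibiotic mice. With antibiotics it was 0.37 ± 0.0997 (0.0577, DESeq2 adjusted p = 0.0153) under saline and 0.50 ± 0.106 (1.41-fold, 0.00226) under morphine. The difference between both morphine changes was 0.12 (edgeR adjusted p = 0.785). Its transcript of 10262 bases is the longest of the 37. With the length slope as a covariate the morphine changes were 0.39 (edgeR adjusted p = 0.704) in water mice and 0.52 (0.0948) in antibiotic mice. The slope separates the saline and morphine groups of water mice, so there the slope and morphine cannot be told apart.

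Stard4, a cytosolic carrier of cholesterol and an SREBP-2 target, was lower with antibiotics under morphine, at 18.3 ± 1.81 CPM in water mice and 14.9 ± 1.82 in antibiotic mice (log2 change -0.30 ± 0.087, edgeR adjusted p = 0.02). It missed the threshold without library 3 of the water mice given morphine (0.059) or library 1 of the antibiotic mice given morphine (0.067). The exporter gene Abcg1, Apoe and the lipoprotein lipase gene Lpl passed in no comparison. Apoe averaged 1388 ± 46.8 CPM in water mice given saline, 1467 ± 122 in antibiotic mice given saline, 1264 ± 161 in water mice given morphine and 1352 ± 92.3 in antibiotic mice given morphine. Abcg1, a liver X receptor target like Abca1, averaged between 128 and 134 CPM in the 4 groups.

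In the fatty acid synthesis group, Acaca, the acetyl-CoA carboxylase that makes malonyl-CoA, was higher with morphine in water mice. It stood at 74.5, 81.4 and 89.0 CPM (lowest, median, highest) under saline and at 97.8, 98.3, 104, 87.5 and 94.4 CPM in libraries 2 to 6 under morphine, with 1 morphine library below the highest saline library. The log2 change was 0.25 ± 0.060 (1.19-fold, edgeR adjusted p = 0.0174), and with the length slope as a covariate 0.13 (0.836). That covariate and morphine cannot be told apart in water mice. In antibiotic mice the values were 77.3, 88.8 and 99.8 CPM under saline and 96.6, 91.3, 92.3, 96.6 and 92.9 CPM under morphine, which overlapped (0.09, 0.371). Its transcript, at 9513 bases, is the third longest of the 37. Acly and Fasn, the fatty acid synthase gene with a transcript of 10050 bases, passed in no comparison.

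Elongases add carbon pairs to fatty acyl-CoA. Elovl6, which lengthens palmitate to stearate, had the largest fall. With morphine it stood at 64.6, 61.9, 63.9, 61.7 and 70.6 CPM in libraries 2 to 6 of water mice and at 38.6, 43.5, 47.0, 47.5 and 54.0 CPM in libraries 1 to 5 of antibiotic mice. Under saline the lowest, median and highest were 51.5, 56.1 and 63.5 CPM in water mice and 47.3, 49.4 and 63.1 CPM in antibiotic mice. The morphine groups did not overlap and the saline groups did.

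The log2 change of Elovl6 with antibiotics was -0.48 ± 0.081 (0.716-fold, edgeR adjusted p = 0.000232) under morphine and -0.12 (0.427) under saline. With morphine it was 0.19 (0.128) in water mice and -0.17 (0.161) in antibiotic mice. The difference between these morphine changes was -0.36 ± 0.11, with an unadjusted p of 0.00298 and an adjusted p of 0.146, so it did not pass over all genes.

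Elovl7, an elongase of saturated and long chains, was lower with antibiotics under either injection. It stood at 16.5, 18.2 and 21.05 CPM (lowest, median, highest) in water mice given saline and at 13.0, 13.6 and 17.0 CPM in antibiotic mice given saline. Under morphine it stood at 17.4, 15.9, 18.4, 16.4 and 18.5 CPM in water mice and at 14.02, 15.6, 13.2, 11.3 and 14.4 CPM in antibiotic mice. The saline groups overlapped in their extreme libraries and the morphine groups did not. The log2 change was -0.37 ± 0.084 (0.776-fold, edgeR adjusted p = 0.03) under saline and -0.34 ± 0.090 (0.792-fold, 0.0115) under morphine. The saline change missed the threshold without library 3 or 4 of the water mice given saline (0.0855 and 0.0583), without library 2, 4, 5 or 6 of the antibiotic mice given saline (0.0584, 0.089, 0.0634 and 0.0596), and with the length slope as a covariate (0.124). Without the pair with the highest Malat1 it was 0.0535.

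Elovl5, which lengthens polyunsaturated chains, was lower with antibiotics under morphine. It stood at 80.7, 78.7, 79.8, 83.8 and 90.01 CPM in water mice and at 65.03, 65.3, 69.5, 66.7 and 81.0 CPM in antibiotic mice, where library 5 alone reached the water range. Under saline the lowest, median and highest were 73.7, 86.5 and 90.2 CPM in water mice and 68.5, 78.5 and 84.2 CPM in antibiotic mice, which overlapped. The log2 change under morphine was -0.25 ± 0.067 (0.842-fold, edgeR adjusted p = 0.0125). Elovl1, an elongase of very long chains, passed in no comparison in edgeR, with its largest change -0.26 (adjusted p = 0.0835) for morphine in water mice, which DESeq2 placed past the threshold. Its exons overlap Cdc20 by 53 bases on the opposite strand.

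Desaturases place double bonds. Fads1, the delta-5 desaturase, was lower with antibiotics under either injection, and no antibiotic library reached the water range. It stood at 289, 301 and 315 CPM (lowest, median, highest) in water mice given saline and at 249.3, 265 and 276 CPM in antibiotic mice given saline. Under morphine it stood at 288, 287, 312, 304 and 286 CPM in water mice and at 243, 245, 243, 258 and 263 CPM in antibiotic mice. The log2 change was -0.19 ± 0.037 (0.880-fold, edgeR adjusted p = 0.0155) under saline and -0.24 ± 0.041 (0.847-fold, 0.000279) under morphine. Under saline it stayed past the threshold without each library in turn (0.014 to 0.0468), and with the length slope as a covariate it was -0.17 (0.0751). The saline call of Fads1 was also lost with only the groups compared and with the library number as a block (edgeR adjusted p up to 0.094).

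Fads2, the delta-6 desaturase that acts ahead of Fads1 in the same route, was lower under morphine. It stood at 118, 119, 111, 111.5 and 116 CPM in water mice and at 94.7, 96.1, 98.9, 101 and 109 CPM in antibiotic mice, without overlap (log2 change -0.20 ± 0.047, 0.868-fold, edgeR adjusted p = 0.00347). Under saline the lowest, median and highest were 103, 106 and 117 CPM in water mice and 100.2, 105 and 113 CPM in antibiotic mice, which overlapped (-0.04, 0.666).

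Scd2, which makes oleate and is prominent in myelinating cells, stood at 1519, 1615 and 1646 CPM (lowest, median, highest) in water mice given saline and at 1398, 1415 and 1507 CPM in antibiotic mice given saline. Under morphine it stood at 1799.8, 1531, 1580.5, 1515 and 1674 CPM in water mice and at 1427, 1371, 1485, 1385 and 1479.6 CPM in antibiotic mice. No antibiotic library reached the water range under either injection. The log2 change was -0.18 ± 0.046 (0.882-fold, edgeR adjusted p = 0.00848) under morphine. Under saline it was -0.17 ± 0.042 (0.892-fold, 0.049), which missed the threshold without any of 18 of the 22 libraries (up to 0.104) and without the pair with the highest Malat1 (0.107).

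Scd1, its near relative, was higher with morphine in antibiotic mice, at 183 ± 23.0 CPM under saline and 218 ± 13.5 under morphine (log2 change 0.25 ± 0.080, 1.19-fold, edgeR adjusted p = 0.0378). It missed the threshold without any of 8 of the 22 libraries (up to 0.0898) and with the length slope as a covariate (0.616). Reads that align to both genes would be counted for neither, since reads with more than 1 alignment stand apart in the table.

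**Figure D3:**
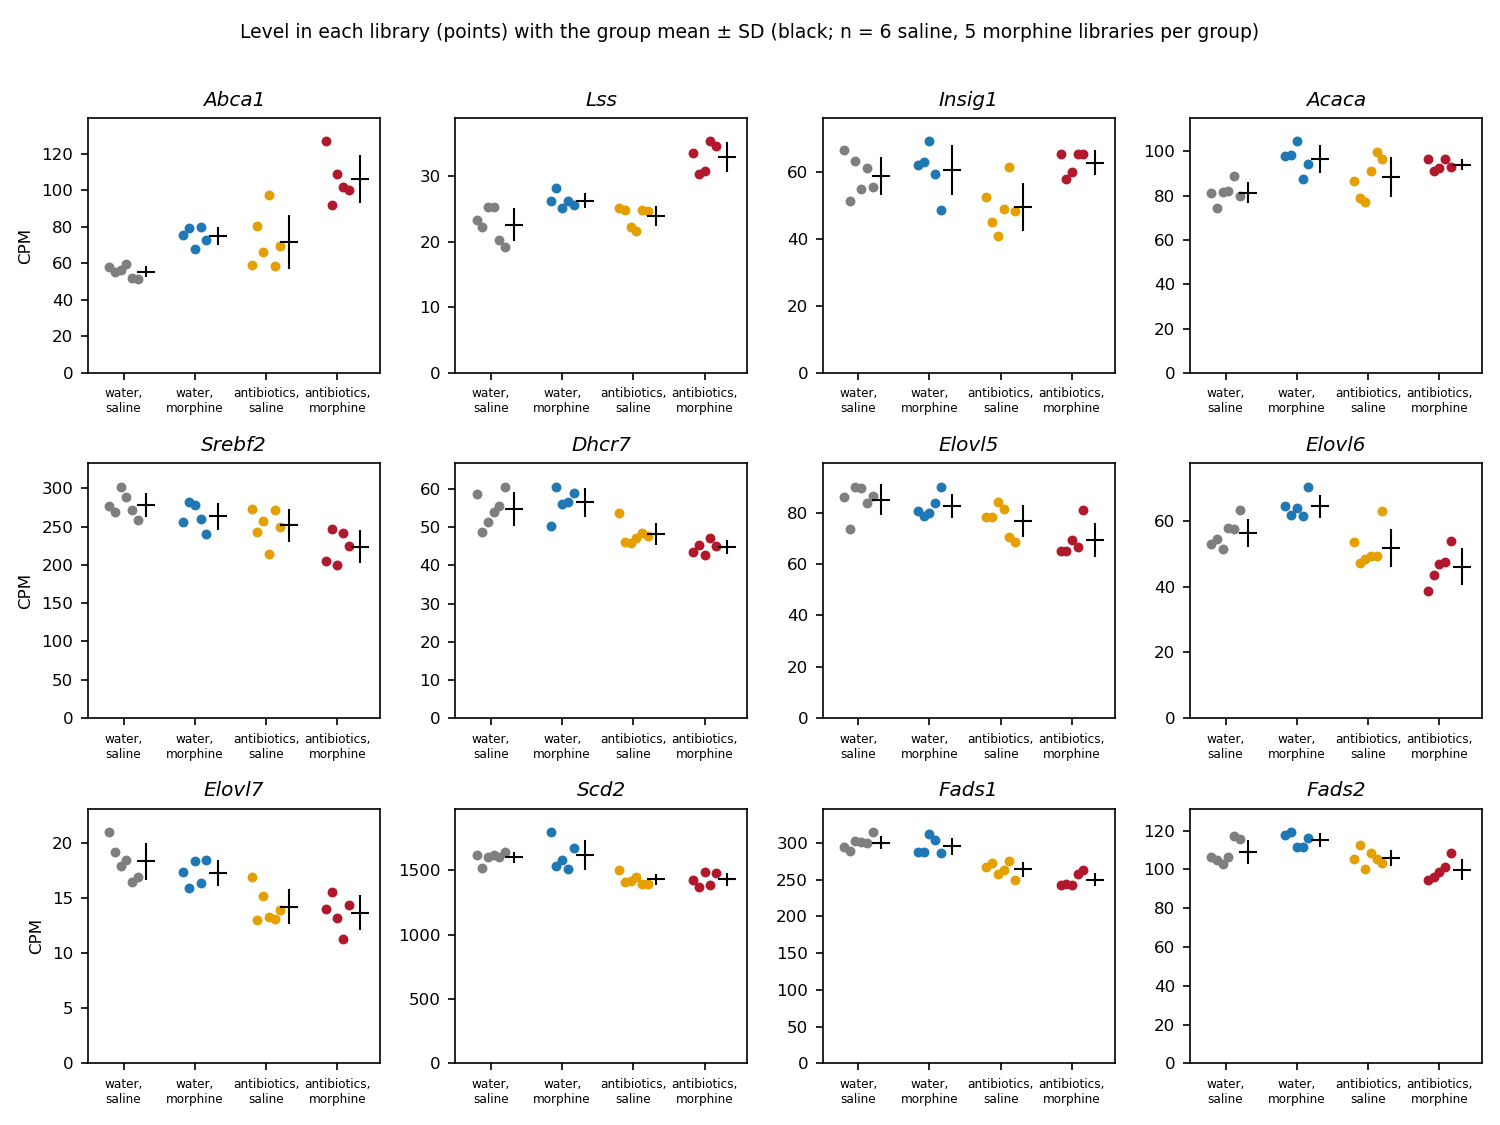
Level in each library (vertical axis, CPM) of 12 genes by group; points are libraries and black marks the group mean ± SD (n = 6 under saline, n = 5 under morphine). The points of Lss and Abca1 are highest in antibiotic mice given morphine, those of Elovl6, Dhcr7, Fads1 and Fads2 are lower there than in water mice given morphine, and those of Fads1 and Scd2 are lower with antibiotics under saline too.

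The antibiotic changes under saline and under morphine come from separate libraries. Across the 37 genes the log2 changes correlated with Pearson's r of 0.655, and 27 of 37 (73%) had the same sign, 23 lower and 4 higher in both. Over all 14564 genes r was 0.464 and 67.9% had the same sign. The morphine changes in water mice and in antibiotic mice, also from separate libraries, correlated with an r of 0.565 across the 37 genes, with 26 of 37 (70.3%) of the same sign. Over all genes r was 0.269 and 64.8% had the same sign. These are descriptions across genes, which are not independent replicates.

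**Figure D4:**
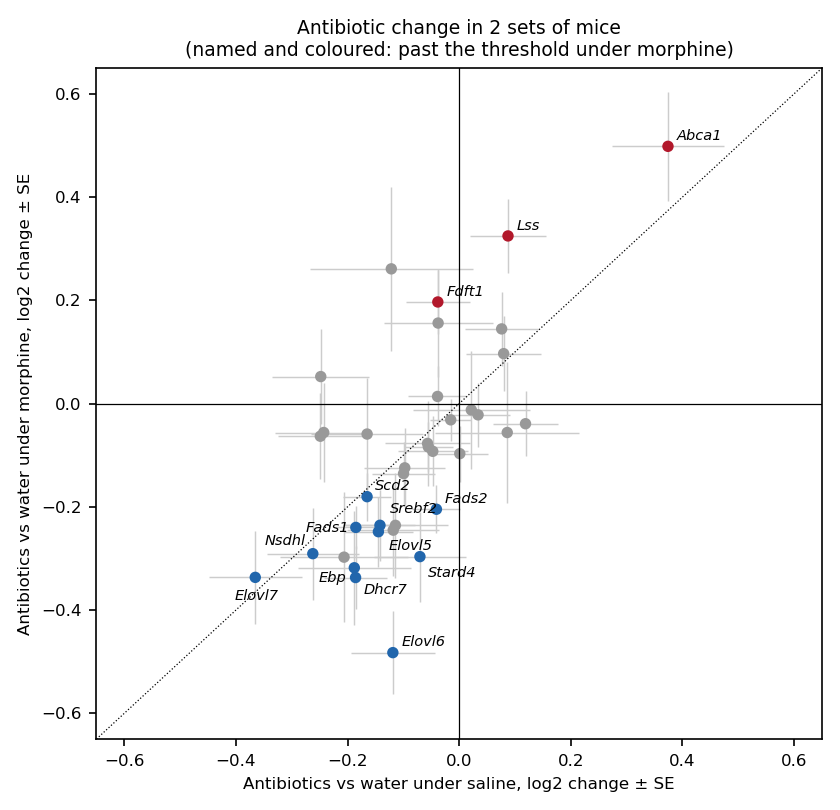
Log2 change with antibiotics under saline (horizontal axis) against that under morphine (vertical axis) for the 37 genes, with standard errors; the dotted line marks equal changes and coloured, named points are past an adjusted p of 0.05 under morphine. Most points, 23 of 37, lie lower left of both zero lines, and Abca1 lies at the upper right.

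No gene of the 37 passed in the test of the difference between the morphine change in antibiotic mice and that in water mice, in edgeR or in DESeq2, where edgeR called 0.467% of all genes, 0.220% in the positive and 0.247% in the negative direction. At an unadjusted p under 0.05 edgeR gave 3 genes with a positive difference and 2 with a negative difference, 8.11% and 5.41% of the 37, where 5.47% and 6.83% of all genes did. Besides Elovl6 these were Fads2 (-0.16, adjusted p = 0.27), Fdft1 (0.24, 0.227), Lss (0.24, 0.317) and Insig1 (0.30, 0.324). An antibiotic effect that passed under morphine and not under saline is therefore not shown to differ between them for any of these genes.

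Markers of other cell types moved between the same groups. Of all genes tested, 0.542% were higher and 0.865% lower with antibiotics under saline, and 8.42% and 9.58% under morphine. With morphine, 3.91% were higher and 2.67% lower in water mice, and 6.43% and 6.62% in antibiotic mice. The summed level of 16 myelin markers was 7025 to 8110 CPM in water mice given saline, 5852 to 6899.8 in antibiotic mice given saline, 5971 to 7015 in water mice given morphine and 5950.1 to 6775 in antibiotic mice given morphine. With antibiotics 11 of these 16 markers were lower under saline and 7 lower and 1 higher under morphine. With morphine 3 were lower in water mice, and 4 were higher and 2 lower in antibiotic mice. Of 12 microglial markers, 7 were lower with antibiotics under saline and 11 under morphine, and with morphine 4 were lower in water mice and 10 in antibiotic mice. Their summed level was 681 to 730.4 CPM in water mice given saline, 581 to 651 in water mice given morphine, 523 to 647 in antibiotic mice given saline and 434 to 513 in antibiotic mice given morphine. Of 12 astrocyte markers, 0 passed with antibiotics under saline, and 1 was higher and 3 lower under morphine. Of 10 endothelial markers, 1 was lower with antibiotics under saline, 1 higher and 4 lower under morphine, and 2 lower with morphine in water mice and 2 in antibiotic mice. Within groups, Elovl5 had an r of 0.607 with their summed level over the 22 libraries. In bulk tissue, fewer cells of a type and less RNA per cell cannot be told apart, and the part of these cell types in the changes of Scd2, Elovl7, Fads1, Dhcr7 and the other lower genes was not tested.

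Within groups, the median SD of the 37 genes was 0.131 on the log2 CPM scale, against 0.149 over all genes tested. Over the 22 libraries, with each group's mean removed, pairs of the 37 genes had a median r of 0.0785, and 11.3% of pairs exceeded 0.5. Early sterol enzymes gave the highest values: r was 0.856 for Fdps with Sqle, 0.838 for Hmgcs1 with Sqle and 0.815 for Hmgcs1 with Fdps. The median r was 0.402 among the genes from acetyl-CoA to squalene and 0.376 between these and the genes from squalene to cholesterol. With the transport genes it was -0.330, the lowest pair being Fdps with Apoe at -0.739. These points share libraries and their depth, and the values are descriptions.

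Several genes also varied with neuronal markers. The summed level of 10 markers of cortical and septal neurons was between 296 and 1657 CPM over the 22 libraries, and its correlation within groups was 0.845 for Hmgcs1, 0.835 for Sqle, 0.818 for Fdps and 0.792 for Acaca, against -0.745 for Apoe. Lpl followed the 14 markers of striatal projection neurons with an r of 0.947, and Acaca had an r of -0.784 with them. None of the cortical and septal markers passed in any of the 4 comparisons in edgeR, although their median log2 change with antibiotics was 0.62 under saline and 0.44 under morphine. No striatal marker passed either. All 14 were below 0 with antibiotics under saline (median log2 change -0.25) and with morphine in water mice (-0.20). Their median was -0.08 with antibiotics under morphine and -0.04 with morphine in antibiotic mice. Across the 17 genes past the threshold, r with the cortical and septal markers lay between -0.413 (Elovl5) and 0.792 (Acaca). It was 0.708 for Fdft1, 0.662 for Insig1, 0.603 for Nsdhl and 0.454 for Srebf2. For Elovl6, Fads2 and Lss it was -0.05, -0.20 and 0.11. Elovl7 had an r of 0.682 with the myelin markers. The part of these markers in the changes between groups was not tested.

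**Figure D5:**
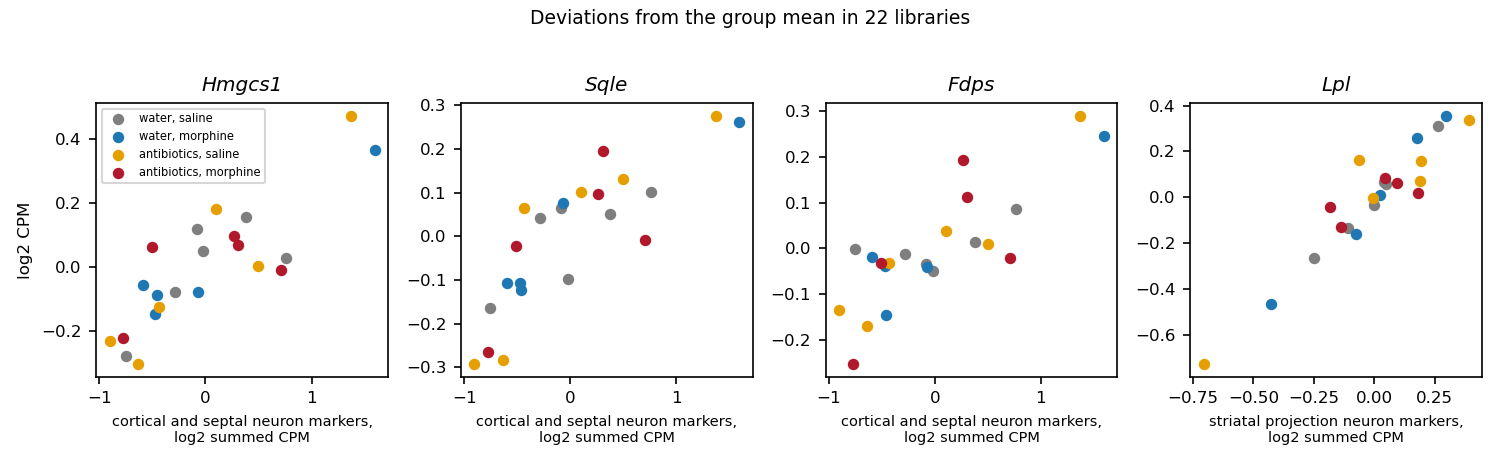
Deviation of each library from its group mean for Hmgcs1, Sqle and Fdps against the summed markers of cortical and septal neurons, and for Lpl against those of striatal projection neurons (both axes on a log2 scale of CPM, 22 libraries coloured by group). The points rise from lower left to upper right in each panel, with r of 0.845, 0.835, 0.818 and 0.947.

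Other genes of the pathway came from 3 fixed lists. Of 19 other genes of sterol synthesis and its control, 4 were higher and 0 lower with antibiotics under morphine (8.42% and 9.58% of all genes), and 2 higher and 0 lower with morphine in antibiotic mice (6.43% and 6.62%). None passed in the other comparisons. The 4 were Ggps1 (log2 change 0.24 ± 0.068, edgeR adjusted p = 0.018), which makes geranylgeranyl diphosphate, the sterol reductase and lamin receptor gene Lbr (0.31 ± 0.094, 0.0232), Nus1 (0.22 ± 0.069, 0.0273), which acts in dolichol synthesis, and Mbtps1 (0.25 ± 0.077, 0.0295), the protease that makes the first cut in SREBPs.

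Of 20 other genes of sterol transport, storage and removal that were tested, 1 was higher and 4 lower with antibiotics under morphine, beside 8.42% and 9.58% of all genes. The lipocalin gene Apod was higher (log2 change 0.68 ± 0.133, edgeR adjusted p = 0.00129) and the transporter gene Abcg4 lower (-0.35 ± 0.066, 0.000691). With morphine, 1 was higher and 2 lower in water mice (3.91% and 2.67% of all genes), and 2 higher and 4 lower in antibiotic mice (6.43% and 6.62%). In water mice Clu, the clusterin gene, was lower (-0.22 ± 0.042, 0.0039) and the receptor gene Lrp1 higher (0.24 ± 0.056, 0.0129).

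Of 26 other genes of fatty acid synthesis, elongation, desaturation and activation that were tested, 4 were higher and 4 lower with antibiotics under morphine (8.42% and 9.58% of all genes), and 3 higher and 3 lower with morphine in antibiotic mice (6.43% and 6.62%). Acacb, the carboxylase that limits mitochondrial fatty acid uptake, was higher with antibiotics under morphine (log2 change 0.69 ± 0.143, edgeR adjusted p = 0.00168), as was Elovl4, an elongase of very long chains (0.33 ± 0.074, 0.00332). The acyl-CoA synthetase gene Acsbg1 (-0.33 ± 0.059, 0.00047) and Ptplad1, an older symbol of the dehydratase gene Hacd3 (-0.25 ± 0.049, 0.000797), were lower. The elongases of the tissue thus moved in both directions under morphine, with Elovl5, Elovl6 and Elovl7 lower and Elovl4 higher.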

How the data were processed

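Per the labels' protocols, RNA was isolated with TRIzol, SMARTer chemistry made the cDNA and sonicated cDNA became libraries. The molecule is labelled polyA RNA, while cDNA synthesis is said to start from total RNA. The submitters' processing notes name FastQC, STAR 2.4.0 and edgeR. The genome build, annotation, counting tool and strandedness were not given in the sources used here. The authors deposited raw read counts per gene, which were used throughout, and a normalised table, which was not used. The 5 summary entries (20.6% to 26.4% of a library's counts) were removed, and 4053 genes were at 0 throughout.

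Genes were kept with filterByExpr by group, scaled by trimmed mean of M-values and fitted in a single 4-group model (18 residual degrees of freedom) with edgeR 4.0.16 in R 4.3.3. Contrasts were tested two-sided with robust quasi-likelihood F-tests and Benjamini-Hochberg adjustment over 14564 genes, at a threshold of 0.05. Standard errors are the log2 change divided by the square root of F. Log2 CPM used a prior count of 2. Alternatives used DESeq2 1.42.0, other size factors, no count filter, only the groups compared, the library number as a block, the length slope as a covariate and leaving out each library. Leaving out the pair of libraries with the highest Malat1 was chosen after seeing the data. Transcript lengths came from GENCODE M21 (matched for 13889 genes, 95.4%) and served levels per length and the slope. Within groups, counts of the 50 library pairs differed by 3.18 to 23 times the variance of repeated sampling, so no library was counted as a duplicate. The fit was tested on simulated data for antibiotics against water under morphine. Changes were planted in a far smaller share of genes than the 18.0% that passed in the data, so recovery in the data may differ. The fit recovered 34% of 1.25-fold, 70% of 1.5-fold and 88% of 2-fold changes, with 8 false calls. A gene that did not pass is therefore not shown to be unchanged.

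The genes and lists were chosen with earlier results of these data known. Values of each morphine library, and the lowest, median and highest saline library, are given for the 12 of the 17 genes past the threshold with the smallest adjusted p, and for Srebf1, Srebf2, Scap and Insig1. Up to 4 genes are named from each other pathway list. Ch25h, Elovl3, Scd4 and Olah, from those lists, did not pass the filter.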

Additional observations from a re-analysis of the deposited data

Results flagged for a closer look

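In 56 groups of 5 or 6 libraries (14 genes in 4 groups), 3 libraries stood far from the rest of their group by Dixon's test, which chance gives in about 1 in 20 groups. Dhcr7 stood at 53.9 CPM in library 1 of the antibiotic mice given saline, where the next library had 48.6 and the lowest 45.9. Scd2 stood at 1520 CPM in library 4 of the water mice given saline, where the next had 1600 and the highest 1650. Elovl5 stood at 81 CPM in library 5 of the antibiotic mice given morphine, where the next had 69.5 and the lowest 65.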

How the results depend on the processing

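The 25 changes of single genes past the threshold kept their direction under every alternative run. Of these, 25 stayed past it with DESeq2, 23 with other size factors, 22 without a count filter, 17 with only the groups compared, 14 with a block, 13 with the length slope and 19 without the pair with the highest Malat1. Leaving out 1 library kept 471 of 550. Counts of the 37 genes past the threshold moved as follows. Morphine in water mice gave 4 with DESeq2 and 0 with the length slope. Morphine in antibiotic mice gave 3 with only the groups compared and 0 with the slope. Antibiotics under saline gave 0 with only the groups compared, 0 with the slope and 1 without the Malat1 pair. Over all genes, the length slope gave 0 for morphine in water mice, 138 for morphine in antibiotic mice and 45 for antibiotics under saline. Only the groups compared gave 1187 for morphine in antibiotic mice and 67 for antibiotics under saline. DESeq2 gave 417 for antibiotics under saline and 185 for the difference, and the fit without the Malat1 pair 74 for antibiotics under saline. The causes were not tested.

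Whether equal library numbers mark paired libraries was not settled. The correlation of same-numbered libraries was between -0.478 and 0.353, above 0.1 in 8 of 25 pairs, and the own number correlated best in 8 of 50. Such correlations over all genes also hold other differences between libraries, so they cannot decide the question. With the replicate number as a block, the 37 genes gave 0 for morphine in water mice, 1 for antibiotics under saline and 9 for antibiotics under morphine. Over all genes the block gave 281 for morphine in water mice, 105 for antibiotics under saline and 10 for the difference.

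Leaving out each library gave 509 to 1118 genes for morphine in water mice (2 to 4 of the 37), 1084 to 2048 for morphine in antibiotic mice (3 to 7), 48 to 409 for antibiotics under saline (1 to 6), 1877 to 2824 for antibiotics under morphine (10 to 15) and 28 to 100 for the difference (0 to 0). With the median transcript length in place of the longest, Apoe had 1699 CPM per kb, Fads1 148.6 and Idi1 9.17, and the order of the genes changed.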
